A study of Mus musculus with 2 samples.

Results

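The genes described here carry the family names Wdr, Ttc, Lrrc, Lrriq, Efcab and Iqc, given for WD, tetratricopeptide (TPR), leucine-rich (LRR), IQ and EF-hand repeats in the protein. They were chosen by name among the probes of the array, leaving out 23 listed names, many with known roles in cilia or ribosome assembly. Other genes with such roles remain in the set. The naming rule uses no measured value, but it was set with earlier results of these data known. The rule gave 157 genes on 282 probes, of 19748 named genes on the array. By name they were 61 Wdr, 26 Ttc, 54 Lrrc, 2 Lrriq, 4 Efcab and 10 Iqc genes. Names are those of the array, with the current symbol in brackets where it differs.

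Such repeats are folds that hold other proteins together. WD repeats form propellers, TPR and LRR units form curved stacks, IQ motifs bind calmodulin and EF hands bind calcium. The same folds therefore serve in very different machines, among them the beating axoneme of motile cilia, the centrosome, ribosome assembly, chromatin complexes, ubiquitin ligases and ion channels. In the fetal airway, multiciliated cells appear between the ages compared here and fill with axonemal proteins under the transcription factor FOXJ1.

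Both samples came from male CD-1 wild-type mouse fetuses, 1 whole lung for each of the embryonic ages E14.5 and E18.5, and no transgene or treatment was used. Epithelium of the airways inside the lobes was cut from stained frozen sections with a laser, the RNA was amplified once, and both ages were hybridised to the same array, E14.5 in Cy3 (green) and E18.5 in Cy5 (red). The series looks for effectors of FOXJ1 in developing cilia. All values are therefore differences between 1 sample and 1 sample, without a replicate check, a dye swap or a test, and dye and age cannot be told apart.

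In the E14.5 channel the median background-subtracted spot signal was 256.5 and 75.2% of probes were well above background. In the E18.5 channel these values were 308.5 and 78.7%. A gene or marker is called higher or lower where its E18.5 level differed from its E14.5 level by 2-fold or more. The 9 epithelial markers listed for the tissue were all measured at both ages, 3 of them called higher and 0 lower, with log2 ratios of E18.5 over E14.5 from −0.75 to 1.59. The 3 club cell markers (7.42 to 8.03) and the 3 alveolar type II markers (2.54 to 3.96) were all called higher. The 5 markers of ciliated cells were all called higher, with intensities summing to 13911 at E14.5 and 121332 at E18.5. Of 8 leukocyte markers 7 were called higher (summed 10135 and 32939), as were 3 of 7 endothelial markers (14058 and 95759, of which Kdr alone made up 4090 and 71669). Of 5 erythroid markers 1 was called higher and 2 lower, the embryonic globins Hbb-y (−4.35) and Hba-x (−3.65). Of 8 smooth muscle and mesenchyme markers 3 were called lower (475918 and 336086). No marker of these lists was dim in both channels. The part of changing cell numbers in the results below was not tested, and more cells of a type cannot be told apart from more RNA per cell.

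Signal was well above background at both ages for 143 of the 157 genes. It was so at E18.5 alone for 6, at E14.5 alone for 1 and at neither age for 7, which were Lrrc19, Lrrc21 (Lrit1), Lrrc22 (Lrit2), Lrrc37a, Lrrc52, Lrrc55 and Wdr49. Among the 150 genes with a ratio or a bound, 48 were called higher, 12 were called lower and 90 lay between the limits. That is 32.0% higher and 8.0% lower, beside 17.3% and 10.1% of all 17244 named genes with a value. The genes stood further out on the higher side. Their median log2 ratio was 0.16 and their upper quartile 1.22, against 0.06 and 0.65 over all genes. By family, 12 of 60 measured Wdr genes were called higher and 6 lower, 7 and 4 of 26 Ttc genes, 17 and 2 of 48 Lrrc genes, and 1 and 0 of 2 Lrriq genes. All 4 Efcab genes and 7 of 10 Iqc genes were called higher and 0 lower. At 8-fold or more, 14 were higher and 0 were lower, and over all genes 546 (3.17%) were higher and 74 lower. Nearest to the 2-fold limit were Lrrc25 (2.03-fold higher) and Wdr3 (2.01-fold lower) just past it, and Wdr81 (1.85-fold higher) and Lrrc3 (1.93-fold lower) just short of it.

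The difference lay mostly in 1 role list. The lists were drawn with earlier results of these data known, so this split is a description and not a test. Genes known or proposed to act in motile cilia or sperm flagella made up 22 of the 48 genes called higher and 12 of the 14 at 8-fold or more. The count at 8-fold depended on the probe. With the median over probes, Iqch, Lrrc46, Wdr66 and Wdr78 fell under 8-fold, and Iqca rose past it. Outside that list, 26 of 127 genes were called higher (20.5%) and 12 called lower (9.45%), near the 17.3% and 10.1% of all genes, and the median log2 ratio was 0.01. The 23 names of the same families that the rule leaves out held 14 genes called higher and 2 called lower, with log2 ratios from −1.46 to 4.58.

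**Figure D1:**
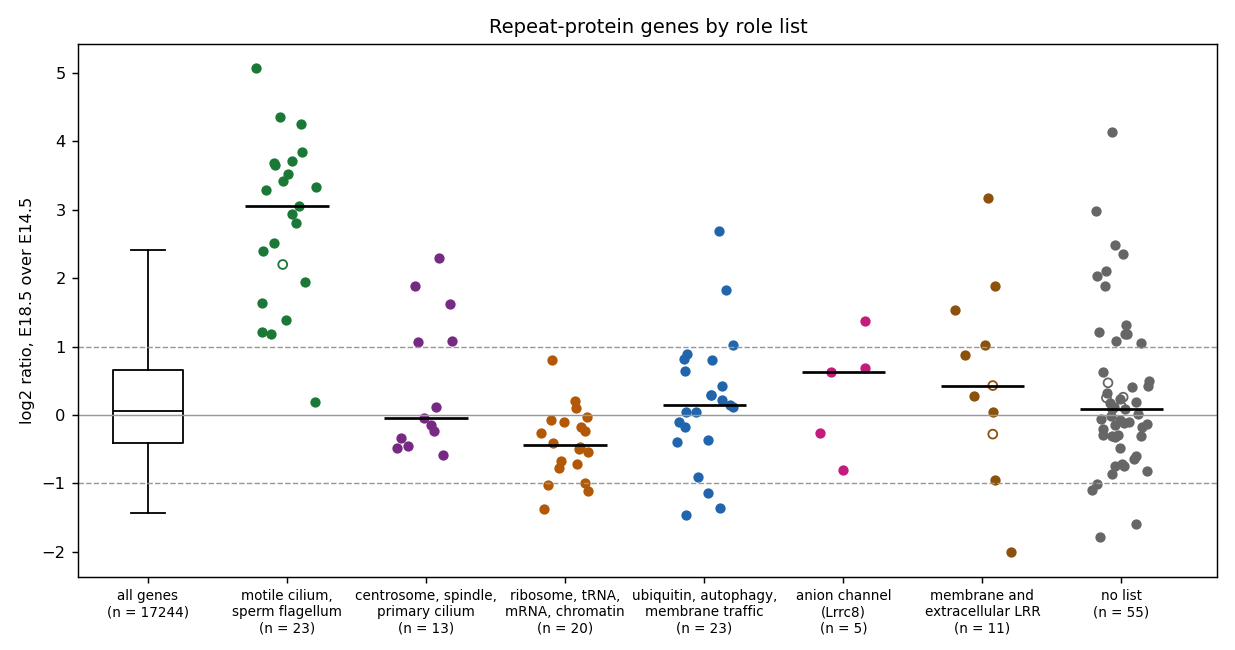
Each point is the log2 ratio of E18.5 over E14.5 (vertical axis) of 1 gene, grouped by role list, with the list's median as a bar, bounds as open circles and 2-fold limits dashed. The box gives the quartiles and the 5th to 95th percentiles over all 17244 genes. The motile cilium list sits above the upper limit except for 1 gene, and the ribosome, tRNA, mRNA and chromatin list sits mostly under 0.

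Of the 24 listed motile cilium and sperm flagellum genes on the array, 23 had a value. Of these 22 were called higher and 0 lower, and Lrrc9 (intensities 102 and 116) was near the background at both ages. The median log2 ratio was 3.06 beside 0.06 over all genes, and the genes called higher ranged from 2.26-fold to 33.5-fold. Of 26 genes of the axoneme and its regulator on a list of well known cilia genes, 24 were called higher and 0 lower, with a median log2 ratio of 4.17. Foxj1 itself went from 5039 to 22922 (log2 ratio 2.19). The 5 ciliated-cell markers given above are all among these 26 genes, as are Wdr16 (Cfap52) and Wdr52 (Cfap44) of the names left out. These counts are therefore not separate. The part of ciliated cells in the values of the motile cilium list was not tested.

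Ttc29, a TPR protein that serves dynein arms in sperm flagella, had the largest ratio of the 157 genes. Its intensity went from 211 to 7070, 33.5-fold higher, from a probe on chromosome 8 from 81229726 to 81229785 on mm8. A second Ttc29 probe on chromosome 8 from 81110085 to 81113977 gave 1.79, with an E14.5 intensity of 100.2. The gene was thus higher by both probes, and its size depended on the probe.

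The LRR genes Lrrc34, Lrrc23, Lrrc56 and Lrrc46 had the next largest ratios of this list and were bright at E18.5. Lrrc34 went from 876 to 17996 (20.5-fold). Its probe lies on chromosome 3 between 30815181 and 30815240. Lrrc23, a protein of the radial spokes that pass signals from the central pair to the dyneins, went from 7133 to 136506 (19.1-fold), by a probe at 124735599 to 124735658 of chromosome 6. Lrrc56, which helps carry dynein arms into the cilium, went from 3350 to 47999 (14.3-fold). Lrrc46, a flagellar protein, went from 1559 to 20500 (13.2-fold), with its other probe at a log2 ratio of 1.85. These 4 genes had clear signal at E14.5, so their ratios hardly moved with the background correction: on the log2 scale they were 4.36, 4.26, 3.84 and 3.72 here, and 4.36, 4.16, 3.74 and 3.61 by the scanner software. Lrrc43 (129 to 1484) and Lrrc18 (123 to 1201) were near the background at E14.5. Lrrc27 went from 473 to 2504.

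Among the WD repeat genes, Wdr78, an intermediate chain of an inner dynein arm, went from 5074 to 64070 (12.6-fold), and its other probe was at 1.93. Wdr66, a protein at the base of the radial spokes, went from 174 to 1757 (10.1-fold), and its other probe was at 1.96. Both were thus higher by each of their measured probes. Of the TPR genes, Ttc21a, a close relative of an intraflagellar transport subunit, went from 207 to 2676 (12.9-fold). Ttc16 went from 148 to 1237 (8.36-fold). Ttc12, a cytoplasmic factor that assembles dynein arms, went from 987 to 6868 (6.96-fold) and by its other probe had a log2 ratio of 2.19.

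The list also held IQ and EF-hand genes. The nexin-dynein regulatory complex, which links neighbouring doublets of the axoneme, was represented by 3 genes that differed in size. Iqca went from 332 to 2542 (7.67-fold, other measured probe 4.12 on the log2 scale), Iqcd from 2258 to 5250 (2.33-fold, other probe 1.73) and Efcab2 from 1408 to 3189 (2.26-fold, other probe 1.34). Efcab1, also called calaxin, a calcium sensor of the outer dynein arm, went from 7203 to 22515 (3.13-fold), and its other 3 probes lay between 0.98 and 2.45. Iqch went from 110 to 1174 (10.7-fold), with its other, dimmer probe at 1.16. Lrriq1 went from 143 to 819 (5.74-fold), with its other, dimmer probe at 1.29. Efcab5 (174 to 673) and Iqck (300 to 789) were nearer to the limit. Lrrc44 (Lrriq3) was well above background at E18.5 only and was at least 4.59-fold higher there.

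**Figure D2:**
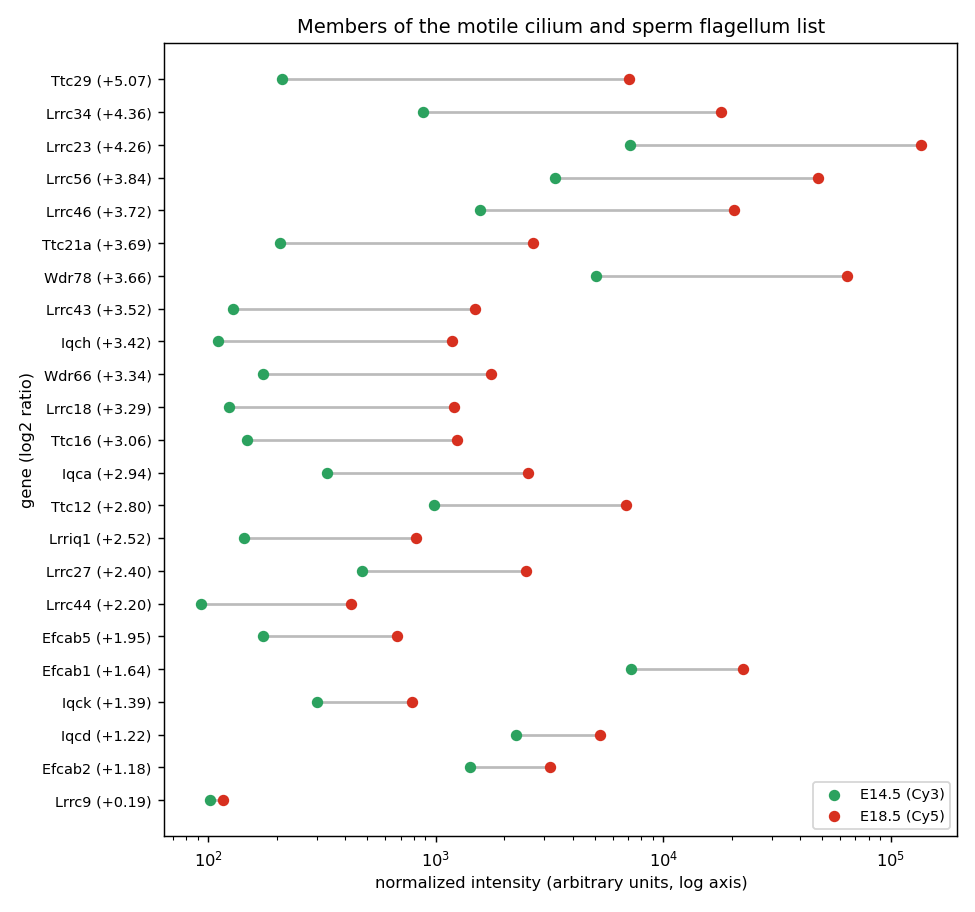
Normalized intensity (horizontal log axis, arbitrary units) of the 23 measured motile cilium and sperm flagellum genes at E14.5 (green) and E18.5 (red), 1 sample each, ordered by log2 ratio. The E18.5 point is to the right for each gene, and 10 of the 22 called genes had an E14.5 intensity under 250.

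Promoters of these genes were read for the motifs of the factors that switch on motile ciliogenesis, because the genes were higher together. RFX factors bind the X-box, whose short form was searched as GTTGCC beside the long palindromic form, and forkhead factors such as FOXJ1 bind TGTTTAC. Both strands were searched in the 300 bases from 250 before to 50 after the gene start, and a long X-box can also hold the short form. RefSeq windows on GRCm38.p6 were found for 124 of the 157 genes. Some genes had several windows, and a gene was counted once if any of them held a match. Among genes with a window, GTTGCC lay in 11 of 36 called higher (30.6%), 10 of 71 within 2-fold (14.1%) and 1 of 10 called lower (10.0%). It lay in 14.1% of all 27025 genes with a window. In the motile cilium list the share was 7 of 16. Outside that list, GTTGCC lay in 4 of 21 genes called higher, nearer to the share of all genes. The long form lay in 1 member window, that of Iqca, and in 0.529% of all genes. TGTTTAC lay in 2 of the 124 genes (1.61%), both not well above background at either age, and in 4.05% of all genes. A match is a run of letters and not a measured binding site.

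The windows shown are those of the 3 genes with the largest ratios, of Iqca with the long form, and of 1 LRR and IQ gene and 1 WD gene. Each gives the 250 bases before the start, 5′ to 3′ along the gene, with matches in capitals.
Ttc29, chr8:78213092-78213341, plus strand: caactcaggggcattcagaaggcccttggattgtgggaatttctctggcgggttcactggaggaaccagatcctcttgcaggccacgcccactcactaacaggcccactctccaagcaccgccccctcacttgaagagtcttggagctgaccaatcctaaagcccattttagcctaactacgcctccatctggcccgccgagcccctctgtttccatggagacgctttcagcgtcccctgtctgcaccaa
Lrrc34, chr3:30647819-30648068, minus strand: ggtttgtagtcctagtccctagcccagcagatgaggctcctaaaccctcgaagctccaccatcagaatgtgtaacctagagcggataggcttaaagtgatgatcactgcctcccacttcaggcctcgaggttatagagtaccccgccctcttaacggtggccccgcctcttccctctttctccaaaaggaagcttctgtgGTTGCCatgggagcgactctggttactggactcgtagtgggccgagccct
Lrrc23, chr6:124779728-124779977, minus strand: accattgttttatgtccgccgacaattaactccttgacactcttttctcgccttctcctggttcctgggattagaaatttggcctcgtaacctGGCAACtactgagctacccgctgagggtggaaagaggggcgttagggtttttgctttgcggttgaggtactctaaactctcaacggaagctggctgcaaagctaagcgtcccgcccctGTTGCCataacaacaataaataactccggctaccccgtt
Iqca, chr1:90153437-90153686, minus strand: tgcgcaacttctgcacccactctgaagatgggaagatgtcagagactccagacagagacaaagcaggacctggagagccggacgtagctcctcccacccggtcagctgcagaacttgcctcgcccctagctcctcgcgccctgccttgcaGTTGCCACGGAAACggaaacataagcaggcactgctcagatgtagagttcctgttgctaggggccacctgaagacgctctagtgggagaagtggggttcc
Lrriq1, chr10:103236323-103236572, minus strand: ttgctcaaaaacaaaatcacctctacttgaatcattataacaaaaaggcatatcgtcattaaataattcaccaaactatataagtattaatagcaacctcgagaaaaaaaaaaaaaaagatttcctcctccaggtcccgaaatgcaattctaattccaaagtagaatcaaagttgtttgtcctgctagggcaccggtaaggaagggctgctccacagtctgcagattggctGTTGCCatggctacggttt
Wdr66, chr5:123253538-123253787, plus strand: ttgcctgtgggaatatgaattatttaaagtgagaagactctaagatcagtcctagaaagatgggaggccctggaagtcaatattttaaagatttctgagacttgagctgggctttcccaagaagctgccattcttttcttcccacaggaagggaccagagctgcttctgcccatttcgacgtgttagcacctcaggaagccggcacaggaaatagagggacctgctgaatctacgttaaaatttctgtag
In these windows GTTGCC began 50 bases before the start in Lrrc34, 39 in Lrrc23, 100 in Iqca and 19 in Lrriq1. Lrrc23 held another on the opposite strand that began 157 bases before the start. Neither Ttc29 nor Wdr66 held a match, although both were over 10-fold higher at E18.5.

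Genes outside the motile cilium list were spread on both sides of 0. Of the 13 genes of the centrosome, spindle and primary cilium list, 5 were called higher (38.5%, beside 17.3% of all genes) and 0 lower, and the median log2 ratio was −0.05. With the median over probes 3 were called higher and the median was 0.16. Wdr31 went from 879 to 4320 (4.91-fold). Iqce, which anchors Hedgehog signalling proteins at the base of the primary cilium, went from 5083 to 18817 (3.70-fold), but its other 2 probes, at intensities near 200, had log2 ratios of 0.31 and −0.26. Lrrc45, a linker between the centrioles, went from 8229 to 25216 (3.06-fold). Wdr73 (1.08) and Wdr47 (1.07, other probe near the background at 98.2 and 98.1) were just past the limit. Wdr62, a spindle pole protein needed for neural progenitors to divide, was at −0.33, and Ttc23 was lowest at −0.58.

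The ribosome, tRNA, mRNA and chromatin list lay on the lower side. Of its 20 genes, 0 were called higher and 4 were called lower (20.0%, beside 10.1% of all genes). In 17 the log2 ratio was under 0, and the median was −0.44 beside 0.06 over all genes. Wdr76, a chromatin-bound protein, went from 698 to 269 (2.59-fold lower), but its other probe, near the background (105.5 and 131.4), was at 0.32. Wdr82, a subunit of a histone H3 lysine methyltransferase, went from 29670 to 13790 (2.15-fold lower), with its other probe at −1.22. Wdr18, which acts in assembly of the large ribosomal subunit, went from 3112 to 1527 (2.04-fold lower), with the other probes at −0.75 and −0.44. Wdr3, of the small subunit processome, went from 10759 to 5364 (2.01-fold lower). Of the 3 that had several probes, only Wdr82 was past the limit by each. Wdr5, the core of several histone methyltransferases, was at −0.67 with its other probe at −1.15. Wdr77, a partner of an arginine methyltransferase, was at −0.71 with other probes from −0.76 to 0.02. At the other end Wdr79 (Wrap53), which guides telomerase RNA, was at 0.81, and Wdr61 was at −0.03 (29535 to 28889) with a second, dimmer probe at 1.63. Of 14 other genes of ribosome assembly, 6 were called lower and 14 were under 0, with a median of −0.62. Centring the ratios on the array's median left 2 of the 20 genes called lower, Wdr18 and Wdr76, beside 8.81% of all genes. The median over probes left the other 2, Wdr3 and Wdr82, beside 8.29%. No lower call of the list thus held under both, and 16 genes were under 0 in each.

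**Figure D3:**
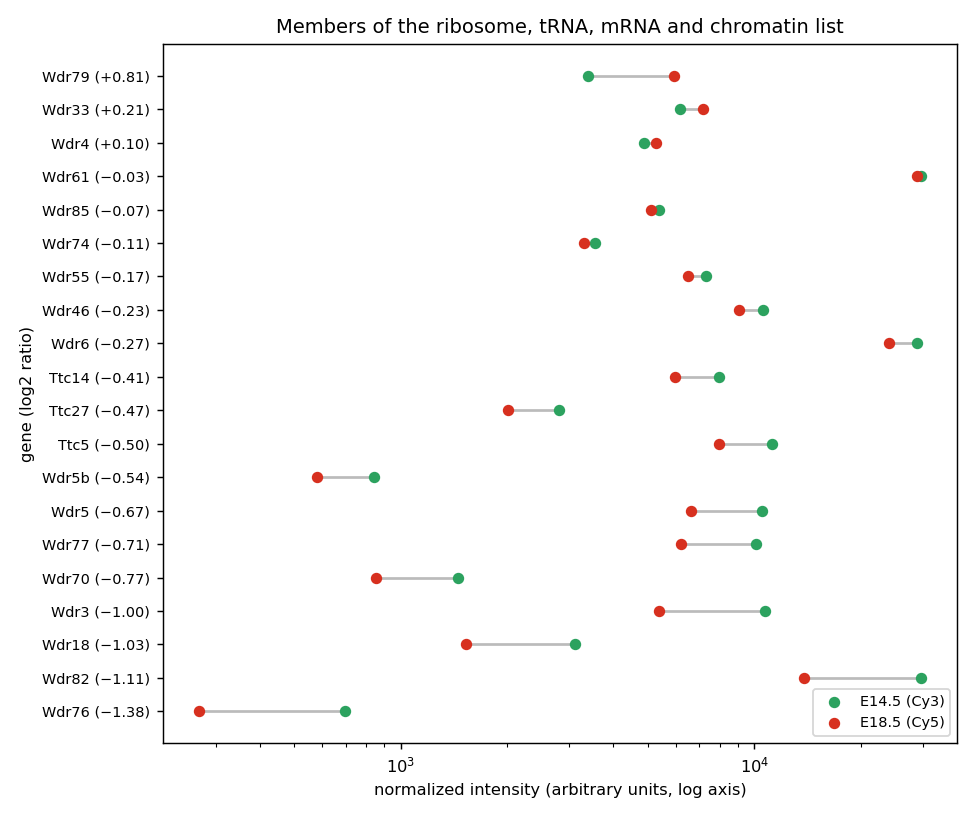
Normalized intensity (horizontal log axis, arbitrary units) of the 20 genes of the ribosome, tRNA, mRNA and chromatin list at E14.5 (green) and E18.5 (red), 1 sample each, ordered by log2 ratio. The E18.5 point is to the left in 17 genes, with gaps that reach 2.59-fold in Wdr76.

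Of 23 genes of ubiquitin ligases, autophagy and membrane traffic, 3 were called higher (13.0%) and 3 lower (13.0%), near the 17.3% and 10.1% of all genes. Their median log2 ratio of 0.15 turned to −0.03 with the scanner software's ratio. Ttc7 (Ttc7a), a scaffold of the lipid kinase that makes phosphatidylinositol 4-phosphate at the plasma membrane, went from 940 to 6074 (6.46-fold higher). Its other probe was near the background at both ages, 96.3 and 99.5. Its relative Ttc7b went the other way, from 2794 to 1085 (2.58-fold lower). Wdr23 (Dcaf11), a substrate receptor of a CUL4 ubiquitin ligase, went from 16925 to 60145 (3.55-fold higher), and Wdr44, a partner of the recycling GTPase Rab11, was at 1.03. Ttc3, a ubiquitin ligase, went from 25578 to 9290 (2.75-fold lower), and Ttc9c from 7004 to 3174 (2.21-fold lower, other probe −0.51). The 9 genes now named as DDB1 and CUL4 associated factors were grouped after their values were seen. They held 2 genes called higher (22.2%, beside 17.3% of all genes) and 0 lower. These were Wdr23 and Wdr40b (Dcaf12l1, 1.08, and 0.93 with the scanner software's ratio). The lowest was Wdr68 (Dcaf7) at −0.87. Calls in this group depended on the probe. Wdr32 (Dcaf10) was at 0.81 with other measured probes at 1.55 and 1.21, and Wdr40c (Dcaf12l2) at 0.41 with its other probe at −1.12.

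The Lrrc8 genes encode subunits of the chloride channel that opens when cells swell, with Lrrc8a the subunit it cannot do without. Lrrc8a was at 0.68 (9807 to 15717) and Lrrc8c at 0.63 (687 to 1064). Lrrc8e was at 1.37 by its brightest probe (960 to 2486) and as low as 0.39 by another. Lrrc8b (−0.27) and Lrrc8d (−0.80, 5295 to 3045) were under 0. Of the 5 subunits 1 was called higher (20.0%, near the 17.3% of all genes). With the median over probes 0 were, beside 15.2% of all genes.

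Of 11 measured LRR genes of the cell surface and the extracellular space, 4 were called higher (36.4%, beside 17.3% of all genes) and 1 lower (9.09%, beside 10.1%). Lrrc4, a synaptic adhesion protein in neurons, went from 427 to 3853 (9.03-fold). Lrrc17, a secreted protein, went from 7063 to 26046 (3.69-fold). Lrrc33 (Nrros), which tethers latent TGF-beta on macrophages and microglia, went from 2024 to 5904 (2.92-fold), and Lrrc25, a myeloid membrane protein, from 111 to 225 (2.03-fold). Beside these last 2 genes stand the leukocyte markers, 7 of 8 called higher with log2 ratios from 0.33 to 3.21 over the list, and their part in the values was not tested. Lrrc15, a membrane protein of fibroblasts and osteoblasts, had the lowest log2 ratio of the 157 genes, −2.01 (498 to 123), with its other probe at −1.03. Of the smooth muscle and mesenchyme markers, Myh11 (−2.43), Acta2 (−1.52) and Cnn1 (−1.45) were called lower. Tagln, Tbx4 and Pdgfra lay between −0.45 and −0.23, and Col1a1 (0.32) and Col1a2 (0.69) were above 0. The part of such cells in the value of Lrrc15 was not tested. Lrrc4c (1.34-fold higher) and Lrrc4b (1.22-fold lower) were measured at 1 age only. Their intensities lay near the background at both ages, so the direction is not sure.

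Of 55 measured genes in no role list, 13 were called higher (23.6%, beside 17.3% of all genes) and 4 lower (7.27%, beside 10.1%). With the median over probes 10 were called higher. The median log2 ratio was 0.08, and −0.08 with the scanner software's ratio. Lrrc51 had the largest ratio of them, within the range of the leading cilia genes. It went from 1398 to 24559 (17.6-fold), and by its other probe from 942.8 to 15074.1. Wdr27 went from 123 to 969 (7.90-fold), Lrrc36 from 112 to 623 (5.58-fold) and Wdr54 from 854 to 3691 (4.32-fold, other probe 0.24 near the background). Efcab4a (Cracr2b), which regulates store-operated calcium channels, went from 2030 to 10457 (5.15-fold). Lrrc58 went from 35366 to 144025 (4.07-fold) by its brightest probe, on chromosome 16 from 37802851 to 37802910. A second bright Lrrc58 probe, on chromosome 16 from 37807494 to 37807553, went from 16329.2 to 14230.6 (−0.20), and the remaining 2 were near the background. The 2 bright Lrrc58 probes thus differed, 1 well past the limit and 1 slightly under 0, so its call, counted above among the genes called higher, rests on 1 probe. Other genes called higher here were nearer to the limit. Ttc9 (2.50-fold, other probe at 0.83) and Iqcc (2.28-fold, other probe at 0.79) each had another probe within 2-fold. Wdr13 was 2.26-fold higher by this probe and past the limit by its other. Iqcf4 (2.31-fold, 94.3 to 218) and Ttc22 (2.08-fold) had 1 probe each. Wdr72, known for its part in enamel formation, was at 1.88 with its other probe at 0.04 near the background. On the lower side, Wdr57 (Snrnp40), a protein of the U5 spliceosomal particle, went from 30048 to 8700 (3.45-fold lower), Ttc13 from 5881 to 1938 (3.03-fold lower), Lrrc16 (Carmil1), a regulator of actin capping, from 9590 to 4463 (2.15-fold lower) and Wdr17 from 188 to 93.0 (2.02-fold lower). Wdr1, an actin-disassembly factor, was at −0.10 (29118 to 27175), and Ttc4, a co-chaperone, at 0.32 (16783 to 20985). The remaining bounds, for Wdr64, Lrrc2, Ttc24 and Iqcf3, were 1.09-fold to 1.38-fold higher. Both intensities of these genes lay near the background, so the bounds give no sure direction. Iqcf1 (−0.21) was the lowest of the Iqc genes, and Lrriq2 (Cep97), a brake on ciliation at the centriole, was at 0.49 with other probes at −0.11 and −1.35.

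Repeated spots of the same probe, available for 204 probes of the whole array, varied little, with a median SD of 0.04 in log2 ratio. Different probes of a gene had a median SD of 0.36 over 74 of the 157 genes, beside 0.33 over 7472 genes of the array. Of 24 genes called higher with several measured probes, 14 were past the limit by every probe and 10 had another probe within 2-fold. Those 10 genes had 14 such probes, of which 8 were under an intensity of 250 at both ages. Whether dimness held the ratios of these probes down was not tested. Of 6 genes called lower with several probes, 2 were lower by every probe. Of the 90 genes between the limits, 7 had another probe at or past 2-fold. No gene had probes at least 2-fold from 0 in opposite directions (0 of the 74 with several measured probes). Of 149 used probes with a position, 17 cover more than their 60 bases on the genome. Annotation of the probe positions was not used here.

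**Figure D4:**
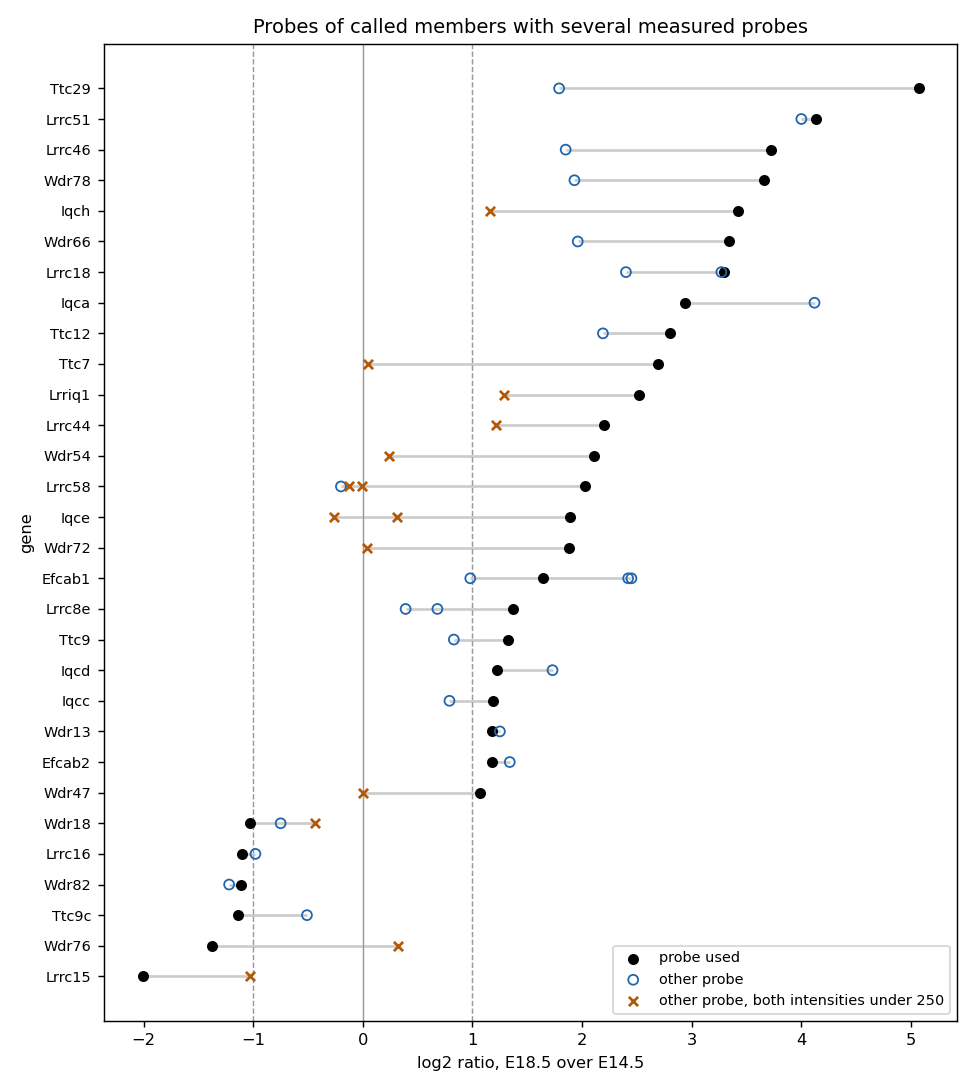
Log2 ratio of E18.5 over E14.5 (horizontal axis) of each measured probe of the 30 called genes with several probes, with the probe used in black, other probes as open circles and other probes under an intensity of 250 at both ages as crosses; dashed lines mark 2-fold. The probes of Lrrc51 lie together, and those of Lrrc58 and Ttc7 lie far apart. Those of Ttc29, from 1.79 to 5.07, lie furthest apart.

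For bright genes the processing mattered little. In the 118 genes with both intensities at 250 or more, the scanner software's log2 ratio differed from the one here by a median of 0.15 and at most 0.52. In the 32 genes with an intensity under 250, the median difference was 0.77 and the largest 2.29, in Lrrc44. Iqch, Lrrc43 and Lrrc18 had 4.68, 4.52 and 4.33 by the scanner software beside 3.42, 3.52 and 3.29 here. For such genes the ratio gives a direction and a size that depends on the background correction.

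**Figure D5:**
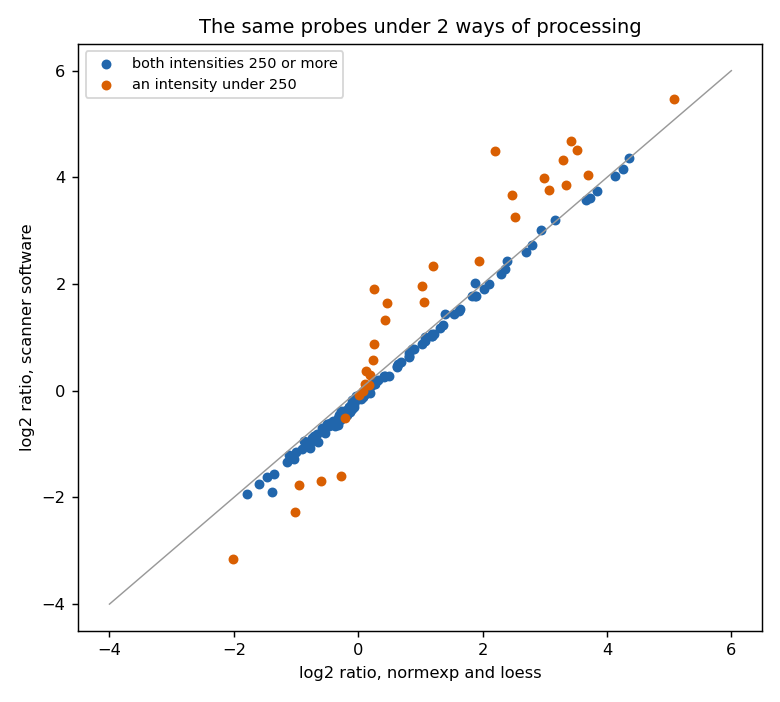
Log2 ratio of E18.5 over E14.5 by the scanner software (vertical axis) against the log2 ratio after normexp and loess (horizontal axis) for the same probe of 150 genes, with the line of equal values. The 118 genes bright at both ages lie along the line within 0.52, and the 32 genes with an intensity under 250 lie up to 2.29 from it.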

How the data were processed

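Both scanner tables deposited by the authors were identical in 115 of 115 columns and were treated as a single array whose green channel is E14.5 and red channel E18.5, per the labels. They hold linear mean and local background intensities, processed intensities, a log10 ratio of red over green and flags of 0 or 1, made with Agilent Feature Extraction, per the file headers. The submitters' processing notes give its version as 9.5.3.1. Probe positions are on mm8, per the file headers. The authors' value table holds processed intensities times 0.339 with a floor of 15 and no centring, found by comparison with the scanner tables. Median values were 129.1 (E14.5) and 130.2 (E18.5).

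Mean intensities were corrected with normexp (offset 50) and the log2 ratios normalized with a loess curve of span 0.3 and 4 iterations (limma 3.58.1, R 4.3.3), where control and outlier spots had weight 0. Loess centres the ratios and hides any shift shared by most genes. Of 43379 probe spots, 160 outliers were left out and 0 were saturated. Of 41170 probes, 24372 were named by RefSeq accession, 6301 by symbol and 2426 by an older symbol, through a table of GRCm38.p6 used for names only; 8071 kept no current name and stayed out of the counts. A gene is read by its brightest probe well above background in at least 1 channel. A probe well above background in 1 channel gives a bound ("at least"), against the higher of the dim spot and the lowest signal well above background in that channel (83.4 at E14.5, 63.2 at E18.5); such bounds are open to dye bias. The number of arrays, 1, limits the precision.

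The genes and lists were chosen with earlier results of these data known. Genes named were the 12 largest and 12 smallest ratios with the same sign in the scanner ratio, bounds, the ends and the brightest gene of each family, the ends of each list and all of the cilia list; others named were chosen after their values were seen. Alternatives were the scanner ratio, an offset of 10, median centring, the median over probes, 2 other filters and the value table. Tables and plots were made with Python 3.11.15, numpy 2.4.6, pandas 2.3.3 and matplotlib 3.10.9.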

Additional observations from a re-analysis of the deposited data

How the results depend on the processing

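Across the 7 alternatives, the number of genes at least 2-fold higher ranged from 43 to 48 and the number at least 2-fold lower from 9 to 17, within 1.5 times the reported 48 and 12, and the median log2 ratio from 0.10 to 0.22. The motile cilium list held 22 genes called higher and 0 called lower under 6 alternatives, and 21 and 0 where both channels had to be well above background. With the scanner software's ratio 45 of the 48 genes stayed higher, without Wdr40b (Dcaf12l1), Wdr44 and Wdr47, and with the median over probes 42 did, without Iqcc, Iqce, Lrrc58, Lrrc8e, Wdr47 and Wdr72. Lrrc58 changed sign with the median over probes, to −0.07, since 3 of its 4 probes lie under 0. Wdr3, Wdr17 and Wdr82 were not 2-fold lower with median centring, and Ttc9c, Wdr18 and Wdr76 were not with the median over probes. The scanner software's ratio moved the median of all genes from 0.06 to −0.05, and the medians of the Wdr genes from 0.05 to −0.11 and of the Ttc genes from −0.11 to −0.28, and the Ttc median was 0.13 with the median over probes. The scanner ratio raised the share of all genes at least 2-fold lower from 10.1% (1738) to 15.4% (2637), and the value table gave 15.4% (2575). Of 55 named genes under 7 alternatives, 318 values moved by less than 0.33, the median SD between probes of a gene, 59 moved by more, among them Lrriq2 (Cep97), which went from 0.49 to −0.11 with the median over probes, and 1 was that of Lrrc58. No paired analysis was possible because each age has 1 sample. Depth limits the 32 genes with an intensity under 250.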
